A study of Mus musculus with 6 samples.

Results

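The BCL2 family genes examined here decide, at the mitochondrion, whether a cell survives or dies by apoptosis. They comprised the anti-apoptotic (guardian) genes Bcl2, Bcl2l1, Mcl1, Bcl2a1b and Bcl2a1d, the BH3-only genes Bcl2l11, Bbc3 and Pmaip1, and the effector genes Bax and Bak1. Members were matched by gene symbol and grouped by role, with earlier results of these data known, and all 10 were found among the 37043 gene symbols of the count table. All 10 also passed the filter on low counts, as did 16675 genes in all.

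The cells were bone marrow-derived basophils (BMBAs), which are basophils grown from bone marrow in culture, of C57BL/6J WT mice. Cells received PBS or IL-3 at 10 ng/mL for 6 h and were measured by bulk RNA-seq, with 3 libraries in each group. Before that, bone marrow of both groups had been cultured for 7 days with cytokine at 0.3 ng/mL (IL-3, by the study's methods) and basophils had been enriched on beads through biotinylated anti-CD49b, so the PBS cells had also been raised in IL-3. The sources used here do not say whether any IL-3 remained in the medium of the PBS group.

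Guardian proteins hold the effectors BAX and BAK in check. BH3-only proteins are the sensors of stress and of lost growth signals, and they bind the guardians or act on the effectors, which then open the outer mitochondrial membrane and release cytochrome c. IL-3 is a growth and survival factor of basophils and mast cells, and withdrawal of IL-3 is a classical trigger of BH3-only proteins in cultured haematopoietic cells.

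IL-3 changed 6 of the 10 members. Bcl2 rose most, and Bcl2l1, Mcl1 and the BH3-only gene Pmaip1 rose as well, whereas the BH3-only genes Bcl2l11 and Bbc3 fell. Bcl2a1b, Bcl2a1d, Bax and Bak1 did not pass the test. A gene was called where the Benjamini-Hochberg adjusted p over all genes tested, from edgeR's quasi-likelihood test, was below 0.05. Over all 16675 genes tested, 38.2% were called, 18.0% as higher and 20.2% as lower with IL-3, against 4 members higher and 2 lower, so that IL-3 moved a large part of the transcriptome. The members' median log2 fold change was 0.10, against -0.0033 for all genes tested. In 8 of the 10 members the 3 IL-3 libraries lay wholly on one side of the 3 PBS libraries, which was the case for 48.2% of all genes tested. In these bulk libraries, fewer cells of a type and less RNA per cell cannot be told apart. Markers of monocytes and macrophages summed to 11399 to 12307 CPM with PBS and 5967 to 6570 CPM with IL-3. Lyz2 held most of these sums, at 10456 CPM with PBS and 5348 CPM with IL-3. Of the 7 markers, 5 fell and 2 rose. CPM is the read count scaled to a common library size, which was adjusted by a trimmed mean (TMM). The part of these markers' cells in the members' changes was not tested.

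**Figure D1:**
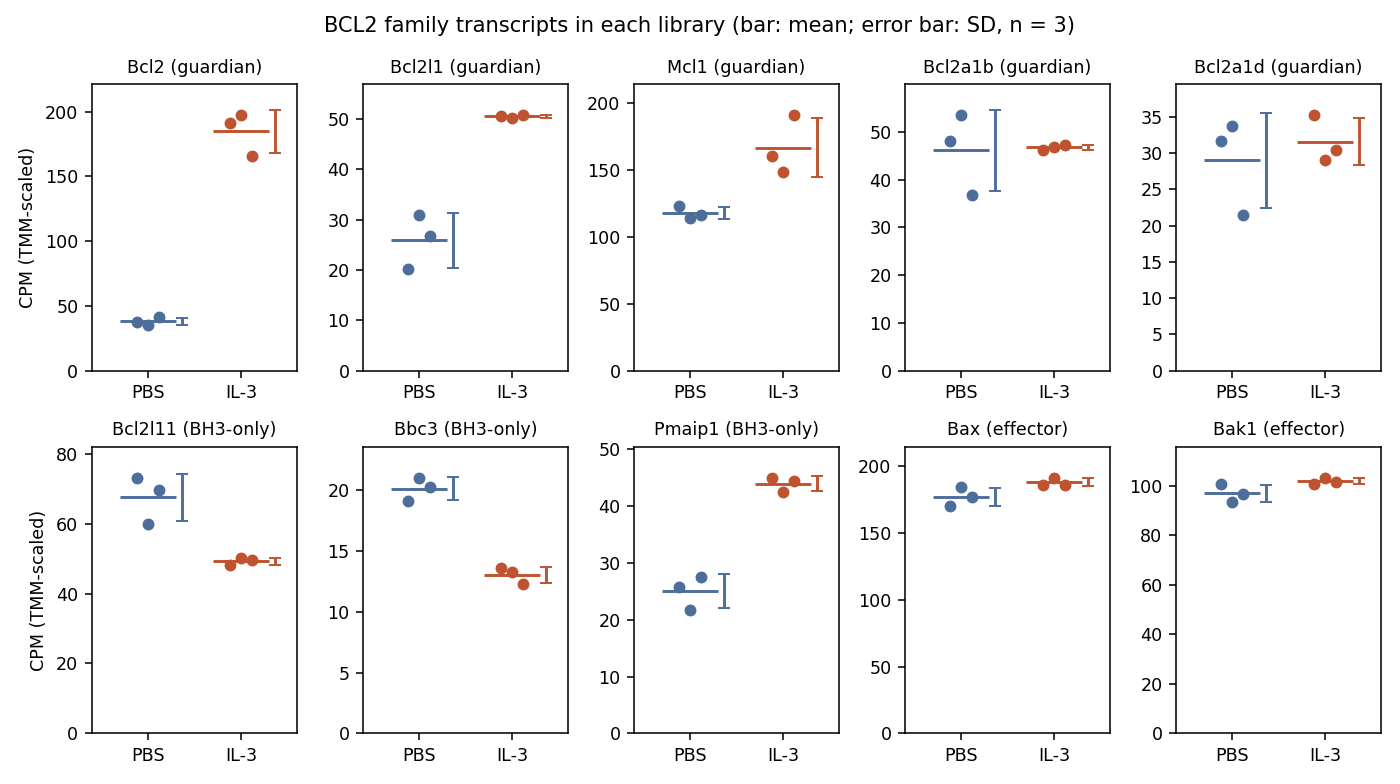
Expression of the 10 members in each library, as CPM after scaling of library sizes, on a linear axis from 0 for each gene. Points are libraries (blue, PBS; orange, IL-3), horizontal lines are means and error bars are SD (n = 3). Bcl2 libraries of the IL-3 group sit between 166 and 197 CPM, far above the PBS libraries at 35.3 to 41.2 CPM, while the groups overlap for Bcl2a1b and Bcl2a1d.

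Among the guardians, Bcl2, the founding member of the family, was at 37.5, 35.3 and 41.2 CPM in the 3 PBS libraries and at 191, 197 and 166 CPM in the 3 IL-3 libraries. The lowest IL-3 library was thus far above the highest PBS library. The means were 38.0 ± 2.98 and 185 ± 16.6 CPM (SD, n = 3), a 4.86-fold difference in level. The log2 fold change was 2.28 (SE 0.0796, 95% interval 2.11 to 2.45, adjusted p = 2.26e-12, edgeR). Only 0.828% of all genes tested had a higher log2 fold change, and Bcl2 stood at rank 139. Bcl2 lies on the minus strand at chr1:106538178-106714274 (GRCm38).

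Bcl2l1, which encodes BCL-XL, a guardian that also restrains BIM and BAX, was at 20.1, 30.9 and 26.8 CPM with PBS and at 50.6, 50.2 and 50.8 CPM with IL-3. The IL-3 libraries were almost level with one another and all above the more scattered PBS libraries. Expression went from 25.9 ± 5.42 to 50.6 ± 0.304 CPM (SD, n = 3), with a log2 fold change of 0.97 (SE 0.117, adjusted p = 6.75e-06, edgeR). Bcl2l1 lies on the minus strand at chr2:152780668-152831728 (GRCm38).

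Mcl1, a guardian whose protein turns over rapidly and which binds NOXA, was at 123, 114 and 116 CPM with PBS and at 161, 149 and 191 CPM with IL-3. The groups did not overlap, and the spread was wider in the IL-3 group. The rise from 118 ± 4.56 to 167 ± 21.8 CPM (SD, n = 3) had the smallest log2 fold change of the called guardians, at 0.50 (SE 0.0791, adjusted p = 0.0001, edgeR). Mcl1 lies on the plus strand at chr3:95658788-95663176 (GRCm38).

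The remaining guardians, Bcl2a1b and Bcl2a1d, are copies of the A1 gene, which in mice has been duplicated on chromosome 9. The copies are much alike, which the start of their coding sequences shows. Below are the first 90 coding bases of 3 copies (GENCODE M21 transcripts, GRCm38), with capitals at the positions where they are not all the same.
Bcl2a1a: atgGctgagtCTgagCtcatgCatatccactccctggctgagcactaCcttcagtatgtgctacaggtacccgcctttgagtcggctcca
Bcl2a1b: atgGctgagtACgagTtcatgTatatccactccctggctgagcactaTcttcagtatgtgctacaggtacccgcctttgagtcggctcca
Bcl2a1d: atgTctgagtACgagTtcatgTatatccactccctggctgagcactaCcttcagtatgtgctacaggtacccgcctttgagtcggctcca
These 90 bases hold 6 of the 12 differing positions among the 516 coding bases. Bcl2a1b and Bcl2a1d differed at 6 of 516 bases (98.84% identity) and shared a run of 217 identical bases. Of all stretches of 50 bases in their transcripts, 79.17% for Bcl2a1b and 79.48% for Bcl2a1d also occurred in another gene, namely the other copies and Gm29094, a gene that overlaps Bcl2a1b on the same strand. For stretches of 100 bases the shares were 56.82% and 54.71%. The split of reads between these rows is therefore uncertain.

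Bcl2a1b, at chr9:89199209-89207827 on the plus strand (GRCm38), was at 48.0, 53.5 and 36.8 CPM with PBS and at 46.2, 46.9 and 47.2 CPM with IL-3. The PBS libraries lay on both sides of the IL-3 libraries. The log2 fold change was 0.020 (SE 0.107, 95% interval -0.21 to 0.25, adjusted p = 0.909, edgeR).

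Bcl2a1d, at chr9:88723285-88731914 on the minus strand (GRCm38), was at 31.7, 33.8 and 21.5 CPM with PBS and at 35.2, 29.1 and 30.5 CPM with IL-3. Here too the groups overlapped, and replicate 3 of PBS was the lowest library, as it was for Bcl2a1b. The log2 fold change was 0.12 (SE 0.137, 95% interval -0.17 to 0.41, adjusted p = 0.541, edgeR). Without that library, the log2 fold changes were -0.12 for Bcl2a1b and -0.055 for Bcl2a1d, so their signs rest on it. The sum over the 4 rows Bcl2a1a, Bcl2a1b, Bcl2a1c and Bcl2a1d, which does not depend on the split among them but leaves out Gm29094, was 108 ± 22.5 CPM with PBS and 115 ± 3.96 CPM with IL-3 (SD, n = 3). Its log2 fold change was 0.086 (SE 0.108, adjusted p = 0.581, edgeR). Gm29094 itself, with which reads of Bcl2a1b can be shared, was at 38.5 ± 6.67 CPM with PBS and 37.4 ± 1.995 CPM with IL-3.

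The BH3-only genes moved in both directions. Bcl2l11, which encodes BIM, a BH3-only protein that binds all guardians and that is held low by cytokine signalling, was at 73.2, 60.1 and 69.6 CPM with PBS and at 48.2, 50.1 and 49.6 CPM with IL-3. Every IL-3 library was below every PBS library. The means were 67.6 ± 6.80 and 49.3 ± 1.02 CPM (SD, n = 3), 0.729 of the PBS level, with a log2 fold change of -0.46 (SE 0.0792, 95% interval -0.62 to -0.29, adjusted p = 0.000266, edgeR). Bcl2l11 lies on the plus strand at chr2:128126038-128162547 (GRCm38).

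Bbc3, which encodes PUMA, a BH3-only protein and a target of p53 and of FOXO factors, was at 19.1, 21.0 and 20.3 CPM with PBS and at 13.6, 13.2 and 12.3 CPM with IL-3. The groups were well apart, with little spread within each. Expression went from 20.1 ± 0.955 to 13.1 ± 0.664 CPM (SD, n = 3), 0.648 of the PBS level, with a log2 fold change of -0.63 (SE 0.115, adjusted p = 0.000415, edgeR). Bbc3 lies on the plus strand at chr7:16308393-16318205 (GRCm38).

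Pmaip1, which encodes NOXA, a BH3-only protein that binds mainly MCL1 and A1, went the other way. It was at 25.9, 21.7 and 27.5 CPM with PBS and at 45.0, 42.5 and 44.4 CPM with IL-3, and every IL-3 library was above every PBS library. The means were 25.0 ± 3.01 and 44.0 ± 1.34 CPM (SD, n = 3), a 1.76-fold difference, with a log2 fold change of 0.81 (SE 0.0956, adjusted p = 4.94e-06, edgeR). Pmaip1 lies on the plus strand at chr18:66458533-66465565 (GRCm38).

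Both effectors were close to their PBS level. Bax, whose protein moves to mitochondria upon activation, was at 170, 184 and 177 CPM with PBS and at 186, 192 and 186 CPM with IL-3. The IL-3 libraries lay just above the PBS libraries, but the log2 fold change of 0.086 (SE 0.0543, 95% interval -0.030 to 0.20, adjusted p = 0.240, edgeR) did not pass the test. Bax lies on the minus strand at chr7:45461697-45466898 (GRCm38).

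Bak1, which encodes BAK, an effector that resides on mitochondria, was at 100, 93.4 and 96.7 CPM with PBS and at 101, 103 and 101 CPM with IL-3. Again the IL-3 libraries lay just above the PBS libraries, and the log2 fold change of 0.072 (SE 0.0579, 95% interval -0.052 to 0.19, adjusted p = 0.368, edgeR) did not pass the test. Bak1 lies on the minus strand at chr17:27019810-27029009 (GRCm38). The intervals of both effectors include 0. Of the stretches of 50 bases in Bak1 transcripts, 17.07% occur in reverse in Ggnbp1, a gene on the other strand, which was at 3.60 CPM with PBS and 5.32 CPM with IL-3. Of those in Bax transcripts, 8.51% also occur in Gm45808.

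**Figure D2:**
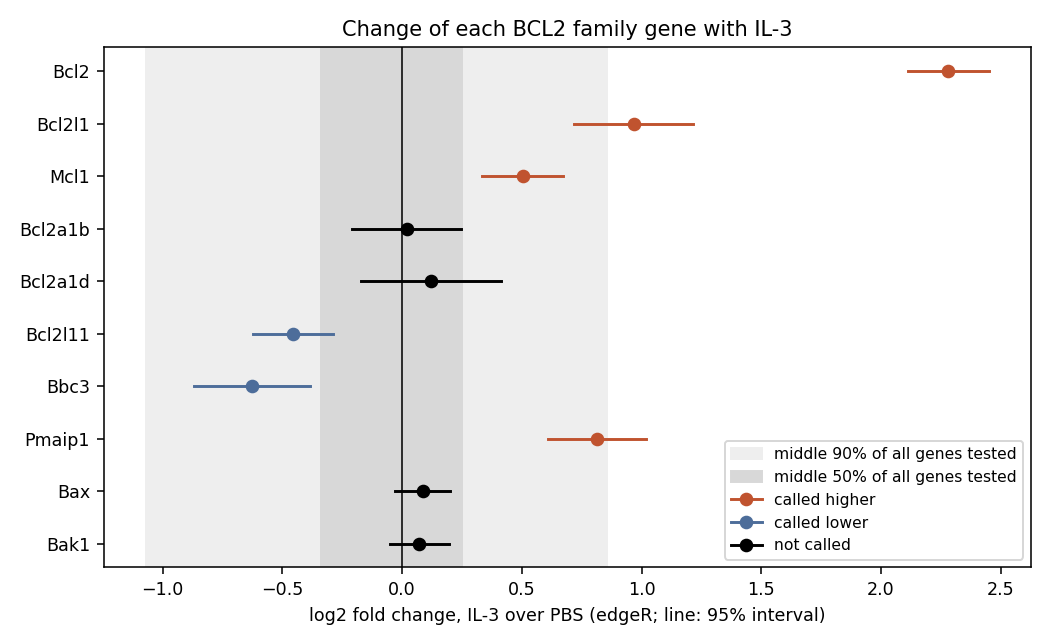
Log2 fold change of each member, IL-3 over PBS, from edgeR (points) with 95% intervals (lines). The dark and light bands hold the middle 50% (-0.34 to 0.25) and the middle 90% (-1.07 to 0.85) of all genes tested, and Bcl2 at 2.28 and Bcl2l1 at 0.97 are the members beyond the light band.

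Scaling mattered for the members near 0. With library totals in place of TMM, the median log2 fold change of all genes shifted by -0.16, and the calls over all genes went from 3003 higher and 3372 lower to 1698 higher and 5030 lower. Bax and Bak1 were then at -0.077 and -0.091, Bcl2a1b at -0.14 and Bcl2a1d at -0.041, again with no call. The 6 called members kept their calls and directions with library totals, with a log2 fold change of 2.12 for Bcl2 as the lowest of its alternatives.

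Levels of different genes were compared per length, as CPM per kb of the longest coding transcript. That reads rise with transcript length was assumed and not tested. On this scale Bax had the highest level with PBS, at 161 ± 6.28, followed by Bcl2a1b at 56.4 ± 10.4, Bak1 at 40.6 ± 1.48, Mcl1 at 34.4 ± 1.34 and Bcl2a1d at 33.6 ± 7.62 CPM per kb (SD, n = 3). The ranges of Mcl1 and Bcl2a1d overlapped. A lower group held Bcl2l11 at 13.4 ± 1.35, Bbc3 at 11.1 ± 0.526, Bcl2l1 at 10.1 ± 2.11 and Pmaip1 at 9.17 ± 1.10 CPM per kb, of which Bbc3, Bcl2l1 and Pmaip1 overlapped their neighbours. Bcl2 came last on this scale, at 5.29 ± 0.415 CPM per kb. In CPM, its PBS mean of 38.0 was above those of Bcl2a1d, Bcl2l1, Pmaip1 and Bbc3.

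With IL-3, Bax at 171 ± 2.68 and Bcl2a1b at 57.2 ± 0.601 CPM per kb stayed in front, and Mcl1 at 48.8 ± 6.39 CPM per kb came before Bak1 at 42.6 ± 0.520 CPM per kb. Bcl2, at 25.7 ± 2.31 CPM per kb, moved above Bcl2l1 at 19.7 ± 0.118 and Pmaip1 at 16.1 ± 0.490 CPM per kb. Bcl2l11 at 9.79 ± 0.202 and Bbc3 at 7.20 ± 0.366 CPM per kb were now lowest on this scale. No neighbours in this order overlapped, but the places of Bcl2a1b and Bcl2a1d in both orders rest on an uncertain split of reads. The place of Bcl2 depends on the transcript that carries the reads: per kb of its shorter coding transcript of 2841 nt, in place of 7191 nt, its levels would be 13.4 with PBS and 65.1 CPM per kb with IL-3. The sums, shares and ratios that follow also use the longer transcript.

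**Figure D3:**
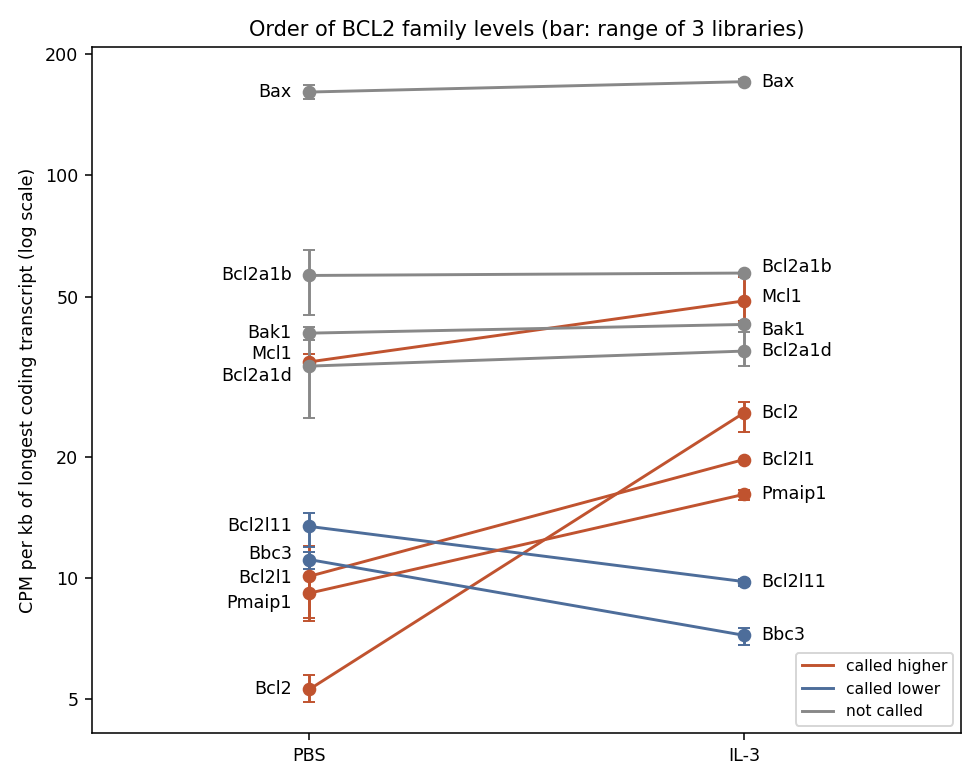
Mean level of each member as CPM per kb of the longest coding transcript on a log axis, with PBS at the left and IL-3 at the right. Bars give the range of the 3 libraries and colours give the call. Bcl2 goes from the last place at 5.29 to 25.7 CPM per kb and crosses the falling lines of Bcl2l11 and Bbc3.

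Summed per kb over the 5 guardians, the level was 140 ± 17.9 with PBS and 188 ± 5.65 CPM per kb with IL-3 (SD, n = 3). The sum of the 3 BH3-only genes was 33.7 ± 1.95 with PBS and 33.1 ± 0.406 CPM per kb with IL-3, so its makeup differed while the total was within the spread between libraries. Pmaip1 made up 27.1% ± 1.77 of the BH3-only sum with PBS and 48.7% ± 1.09 with IL-3, whereas Bcl2l11 went from 39.8% ± 2.10 to 29.6% ± 0.965 and Bbc3 from 33.1% ± 3.34 to 21.7% ± 0.965. The order of these shares rests on the division by length. In CPM, Bcl2l11 at 49.3 was still above Pmaip1 at 44.0 with IL-3. Among the guardians, Bcl2 made up 3.85% ± 0.828 of the sum with PBS and 13.7% ± 1.55 with IL-3, or 9.19% ± 1.86 and 28.6% ± 2.70 per kb of its shorter transcript.

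Ratios of levels per kb within a library put guardians beside BH3-only genes that bind them. The ratio of Bcl2 to Bcl2l11 was 0.395 ± 0.0318 with PBS and 2.63 ± 0.247 with IL-3 (SD, n = 3), and that of Bcl2l1 to Bcl2l11 was 0.767 ± 0.235 and 2.01 ± 0.0487. Per kb of the shorter Bcl2 transcript, the ratio of Bcl2 to Bcl2l11 was 1.0 ± 0.0806 and 6.65 ± 0.625, so its size depends on the transcript chosen. Neither pair of groups overlapped. The ratio of Mcl1 to Pmaip1, which both rose, was 3.79 ± 0.416 with PBS and 3.02 ± 0.352 with IL-3, and here the ranges of 3.37 to 4.20 and 2.79 to 3.43 overlapped. These sums, shares and ratios are descriptions of the same libraries and were not tested.

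The promoters were searched for letters known to be bound by FOXO factors, which act on Bcl2l11 and Bbc3 when growth factors are missing, and by STAT factors, which act below the IL-3 receptor. The motifs were chosen after the members' values had been seen. RefSeq windows of 300 bases (GRCm38.p6), from 250 bases before to 50 after a gene's start, were held for 9 members, in 14 windows. Pmaip1 had no window and was not searched. GTAAACA, the FOXO core, was sought on both strands and was present in 2 of the 14 windows, 1 of Bcl2l11 and 1 of Bbc3. It occurred in 3.65% of all 32851 windows. The 60 bases around each match are shown so that the motif can be read in its place, in the direction of the gene and with the motif in capitals.
Bcl2l11: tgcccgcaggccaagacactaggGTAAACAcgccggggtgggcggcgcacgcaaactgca
Bbc3: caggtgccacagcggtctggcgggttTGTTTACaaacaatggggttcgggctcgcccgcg
The Bcl2l11 stretch is at chr2:128125788-128125847, upstream of the annotated gene, and its motif begins 227 bases before the start. The Bbc3 stretch is at chr7:16310068-16310127, before a RefSeq start of the gene and within an intron of transcripts in GENCODE M21, and holds the motif on the reverse strand. TTCNNNGAA, the STAT spacing that STAT5 prefers, was in 0 of the 14 windows and in 8.3% of all windows. TTCNNNNGAA was in 1 member window, of Bcl2l1, 4 bases before a start, and in 6.95% of all windows. A match of letters is a description and not evidence of binding. Whether a match goes with a gene's change was not tested.

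As a check of the labels, the IL-3 target genes Cish and Socs3, which are feedback inhibitors of cytokine signalling, were at 81.2 ± 6.61 and 30.7 ± 1.07 CPM with PBS and at 1311 ± 53.5 and 379 ± 6.28 CPM with IL-3 (SD, n = 3). The genes whose pattern was most like that of Bcl2 were Bcar3, Rara and Gm49339. Likeness was the Euclidean distance of log2 CPM, centred on each gene's mean over the 6 libraries, and was 0.0969, 0.233 and 0.237 for these genes among 16674 compared. Their log2 fold changes were 2.23 for Bcar3, 2.37 for Rara and 2.35 for Gm49339, beside 2.28 for Bcl2.

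Other genes of the family also moved in both directions. Of 12 listed, 9 were tested, 2 rose and 4 fell, with a median log2 fold change of 0.14 against -0.0033 for all genes. That median was the value of Bcl2a1a, a copy with shared reads, and its sign turned with the Bcl2a1 rows summed (-0.35), with no filter on low counts (-0.34), with library totals (-0.022) and without PBS replicate 3 (-0.037). Bmf, a BH3-only gene, fell most, from 13.9 ± 1.66 to 4.35 ± 0.789 CPM (SD, n = 3), with a log2 fold change of -1.69 (adjusted p = 9.68e-07, edgeR). The mitophagy receptor genes Bnip3l and Bnip3 went in opposite directions, with log2 fold changes of -0.93 (adjusted p = 2.30e-09) and 1.03 (adjusted p = 5.60e-08). Bid, the BH3-only gene cleaved by caspase-8, rose with 0.42, a call lost with library totals (0.26, adjusted p = 0.0684, edgeR). The BH3-only gene Bad and the guardian gene Bcl2l2 fell with -0.37 and -0.35, and the call of Bcl2l2 was lost without PBS replicate 1 or 2 or IL-3 replicate 2 or 3. Bcl2l10 had 0 counts in all 6 libraries. Bok and Hrk were removed by the filter on low counts, and with no filter neither was called (adjusted p = 0.0954 and 0.730, edgeR).

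Around the mitochondrial step, 3 of 14 genes for caspases and mitochondrial death factors rose and 5 fell, with a median log2 fold change of 0.072. The sign of that median turned with library totals (-0.092) and without PBS replicate 2 (-0.044). Cycs, the gene of cytochrome c, rose from 41.0 ± 3.26 to 66.9 ± 5.10 CPM (SD, n = 3, log2 fold change 0.71, adjusted p = 4.41e-06, edgeR). Diablo (0.72), which antagonises inhibitor of apoptosis proteins, and the initiator Casp8 (0.57) rose too. Apaf1, the scaffold of the apoptosome, fell with a log2 fold change of -0.27, a call lost without IL-3 replicate 2. Also lower were Htra2 (-0.51), Endog (-0.79) and the channel genes Vdac1 (-0.37) and Vdac2 (-0.39). Of 5 inhibitor of apoptosis genes, Birc5 fell with -1.18 (adjusted p = 2.56e-08) and the other 4 did not pass the test, among them Birc3 at -0.25 (adjusted p = 0.0666) and Birc2 at -0.18 (adjusted p = 0.230, edgeR), with a list median of -0.18. Birc3 and Birc2 were called lower with library totals.

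Of the p53 pathway, which acts on Bbc3, Pmaip1 and Bax, 11 of 12 genes were tested, 5 rose and 4 fell, with a median log2 fold change of 0.088. That median was -0.074 with library totals, 0.17 with no filter on low counts and 0.018 without IL-3 replicate 1. Cdkn1a, a cell cycle inhibitor, rose from 149 ± 9.42 to 609 ± 15.3 CPM (SD, n = 3, log2 fold change 2.03, adjusted p = 1.39e-13, edgeR), and Sesn2 rose with 2.08 (adjusted p = 8.82e-11). Aen (0.83), Perp (0.80) and Mdm2 (0.23), the ubiquitin ligase of p53, rose too, although the call of Mdm2 was lost with library totals (0.066, adjusted p = 0.422, edgeR). Trp53 itself fell with -0.33, together with Trp53inp1 (-0.93, adjusted p = 1.03e-07), Phlda3 (-1.60) and Sesn1 (-0.44).

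Among 4 tested genes for other transcription factors of BH3-only genes, E2f1 (-0.59), Foxo1 (-0.54) and Ddit3 (-0.43) fell, and Foxo3 at 0.043 did not pass the test. The Foxo1 libraries of the groups overlapped, and its call was lost without PBS replicate 2 or 3 or IL-3 replicate 1 or 3. The list's median log2 fold change was -0.49. Of 4 genes for ubiquitin enzymes of MCL1 turnover, Fbxw7 rose with a log2 fold change of 0.50 (adjusted p = 0.00197, edgeR), and the other 3 did not pass the test, with a median of -0.037 over the list. That median was -0.20 with library totals and -0.0019 without IL-3 replicate 1. Usp9x, which encodes a deubiquitinase, was at -0.17 (adjusted p = 0.0688) and Btrc, which encodes a ubiquitin ligase subunit, at -0.18 (adjusted p = 0.220, edgeR), and both were called lower with library totals. In the plot of these lists, called genes stood on both sides of 0 in 3 of the 6 lists.

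**Figure D4:**
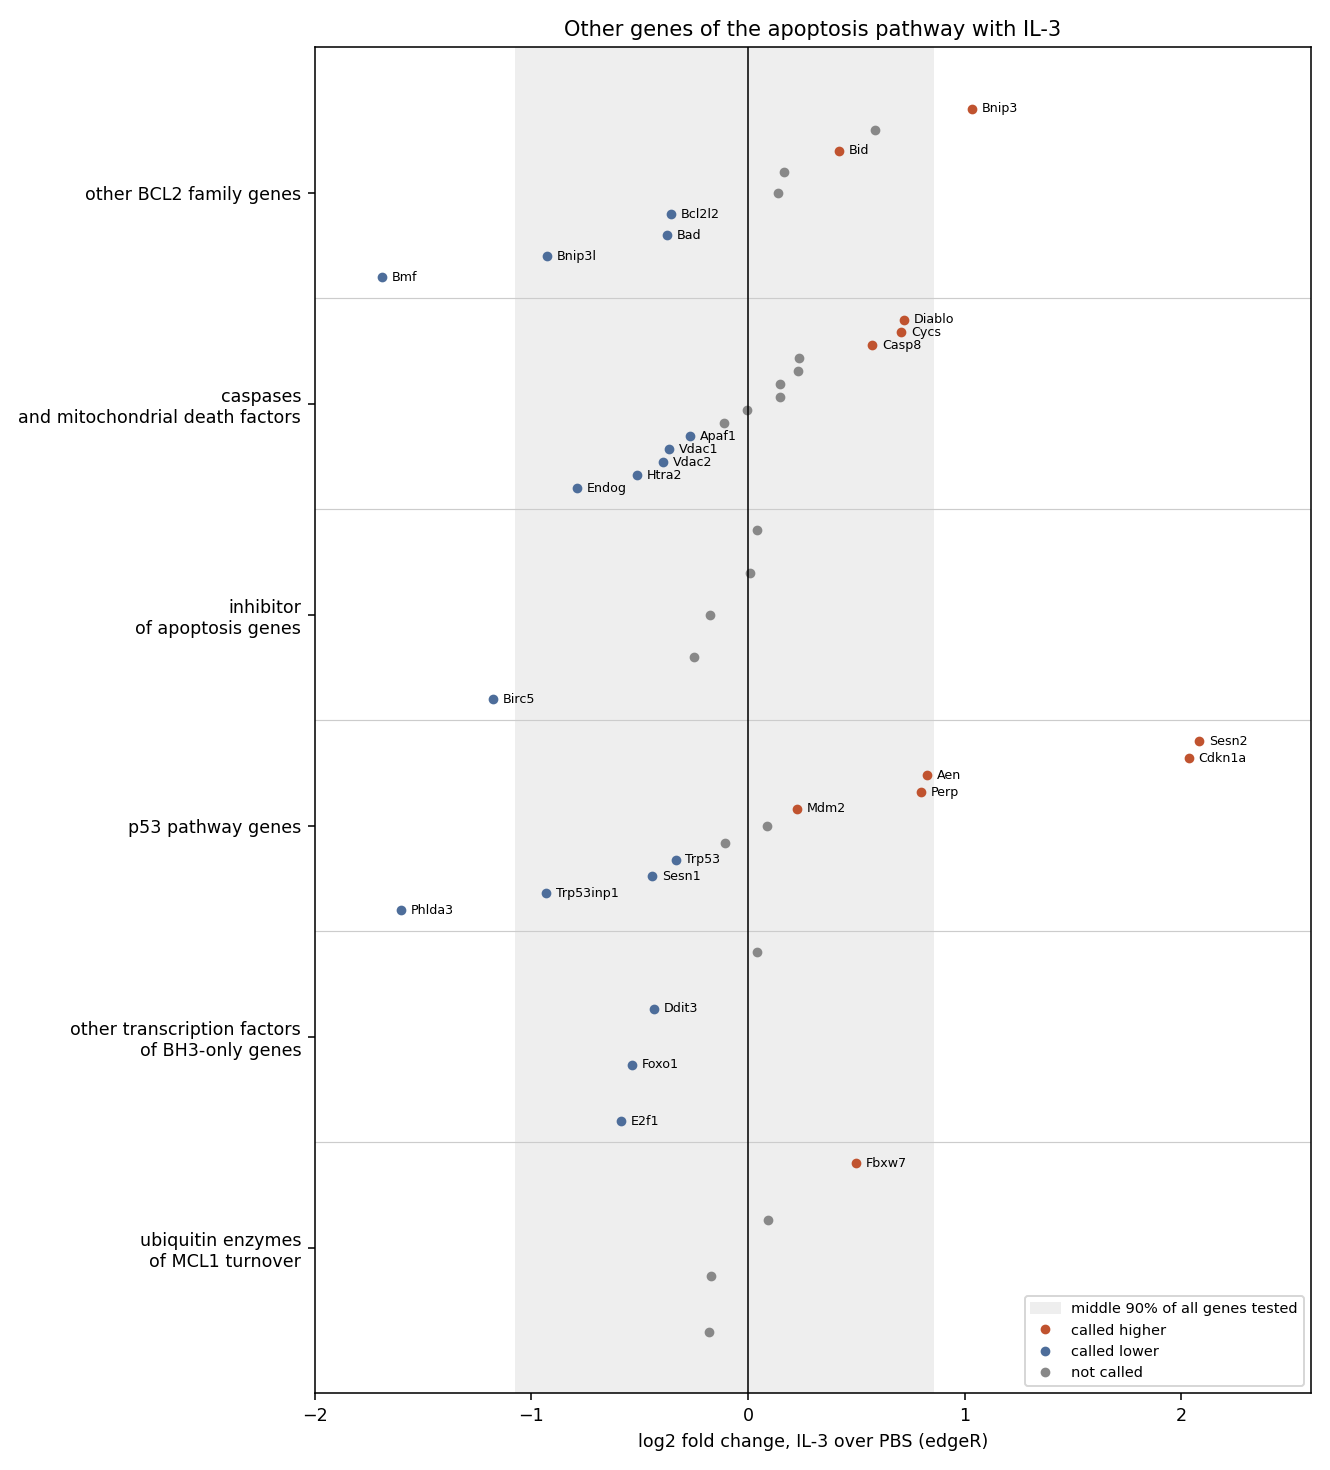
Log2 fold change, IL-3 over PBS (edgeR), of each tested gene in 6 lists around the BCL2 family, sorted within its list. Orange and blue points were called higher and lower, grey points were not called, and the grey band holds the middle 90% of all genes tested (-1.07 to 0.85). Cdkn1a and Sesn2 lie furthest to the right, and Bmf and Phlda3 furthest to the left.

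Markers of other cell types moved between the groups. Basophil markers summed to 9365 to 10477 CPM with PBS and 13587 to 13893 CPM with IL-3, where 4 of 6 rose and 1 fell. Among the most abundant, Mcpt8 rose from 3066 to 5895 CPM. Prss34, at 5615 and 5661 CPM, did not pass the test. Of the monocyte and macrophage markers, 5 of 7 fell and 2 rose, with Lyz2 the most abundant. Mast cell markers summed to 839 to 944 and 1437 to 1569 CPM, with 4 of 5 tested higher. Eosinophil markers summed to 154 to 169 and 93.4 to 134 CPM, with 3 of 4 tested lower and 1 higher, and erythroid markers to 57.5 to 122 and 30.8 to 56.4 CPM, with 1 of 2 tested lower. Neutrophil markers (64.4 to 102 and 64.0 to 115 CPM, 1 of 4 tested higher and 1 lower) and NK, T and B cell markers (2.19 to 2.82 and 2.57 to 2.64 CPM, 0 of 1 tested called, Gzma at 0 throughout) overlapped between groups. What these cells contributed to the members' changes was not tested.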

How the data were processed

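Per the labels and the study's methods, mRNA was captured and reverse-transcribed on beads and amplified as whole-transcriptome cDNA, and reads were trimmed with Cutadapt 3.4 (submitters' processing notes) and mapped with Bowtie2 to reference RNA. The authors deposited raw read counts per gene symbol for all 6 libraries. The methods name GRCm38 and the processing notes GRCm39, and the source of the RNA also differs (a column kit in the labels, direct lysis in the methods). No molecular identifiers are described, and the sources used here do not give the use of strand. Replicates were separate samples per the labels, and the study describes them as 3 cultures per stimulation from 1 experiment. The p-values therefore measure the spread between these cultures and not between experiments.

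Library totals were 10537540 to 13999287 counts. A count of 0 allows up to 3 counts, or 0.233 to 0.296 CPM, which covers counting error only. In R 4.3.3, edgeR 4.0.16 was used with filterByExpr (minimum count 10, minimum total 15), TMM scaling and the quasi-likelihood F test (two-sided) with group as the only term, since TCC, the study's tool, calls edgeR. The SE came from the F value. The scripts were tested on simulated data in which 193 of 16508 tested genes changed 2-fold. With 38.2% of genes called here, that does not test the scaling. Alternatives were DESeq2 1.42.0 size factors and Wald test, library totals, iterated TMM, other filters, limma-voom (limma 3.58.1), a replicate block, each library left out, and summed Bcl2a1 rows. Coordinates and transcripts came from GENCODE M21 (96.12% of symbols matched), and promoters from RefSeq.

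The members and lists were chosen with earlier results of these data known. Some listed items are not reported here and were left out of their list's counts and median. By rule, the text names all members, the 3 genes of each pathway list with the smallest adjusted p and any other called gene of these lists, the most abundant markers, Cish and Socs3, and the 3 genes most like the member with the smallest adjusted p. Foxo3, Bok, Hrk, Bcl2l10, Gzma, Bcl2a1a, Bcl2a1c, Bcl2l12, Bcl2l13 and the overlapping genes Gm29094, Gm45808 and Ggnbp1 fall outside it and were named after their values were seen. No pair of libraries in a group differed by as little as sampling noise (chi-square per degree of freedom 2.75 to 4.69).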

Additional observations from a re-analysis of the deposited data

How the results depend on the processing

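The 6 called members were called in the same direction under all 15 alternatives, and the 4 others under 0 of them. For the called members, the fit with summed Bcl2a1 rows is nearly the main fit by construction and adds little. With library totals, 1698 genes were higher, and log2 fold changes turned sign for Bcl2a1b (-0.14), Bcl2a1d (-0.041), Bax (-0.077) and Bak1 (-0.091). With iterated TMM, Bcl2a1b was at -0.0046. With 1 library left out, Bcl2a1b ranged from -0.12 to 0.14 and Bcl2a1d from -0.055 to 0.24, both lowest without PBS replicate 3.

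List medians also moved with library totals: -0.022 for other BCL2 family genes, -0.092 for caspases and mitochondrial death factors, -0.34 for inhibitor of apoptosis genes, -0.074 for p53 pathway genes, -0.65 for other transcription factors and -0.20 for ubiquitin enzymes. For other BCL2 family genes the median was -0.34 with no filter and -0.35 with summed Bcl2a1 rows. For p53 pathway genes it was 0.064 with iterated TMM and 0.17 with no filter. With 1 library left out, the medians ranged from -0.037 to 0.23 (other BCL2 family genes), -0.044 to 0.14 (caspases), -0.28 to -0.097 (inhibitor of apoptosis genes), 0.018 to 0.15 (p53 pathway genes), -0.51 to -0.44 (other transcription factors) and -0.074 (without IL-3 replicate 2) to -0.0019 (without IL-3 replicate 1) for ubiquitin enzymes. Calls went from 1 to 3 with library totals and to 2 with iterated TMM, in both the inhibitor of apoptosis and the ubiquitin list, and with 1 library left out from 1 to 2 in each. Bid and Mdm2 lost their calls with library totals, and Bcl2l2, Apaf1 and Foxo1 lost theirs when some of the single libraries were left out. The causes were not tested.

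The replicate numbers did not pair the libraries (correlations of deviations -0.0087, -0.016 and -0.022). The replicate block gave 2842 genes higher and 3247 lower, 2.28 for Bcl2, and changed no member's call. Hrk held 0 to 5 counts per library, which limits what a test of it can show.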

Other observations

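Further genes with names of the BCL2 family were looked up after the results were seen. Bcl2l13, which encodes a mitochondrial outer membrane protein, was at 23.6 CPM with PBS and 28.2 CPM with IL-3, with a log2 fold change of 0.25 that did not pass the test (SE 0.0986, adjusted p = 0.0535, edgeR). Bcl2l12 was at 12.4 CPM with PBS and 8.70 CPM with IL-3, with a log2 fold change of -0.51 (SE 0.177, adjusted p = 0.0325, edgeR), although the libraries of the groups overlapped.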
